A study of Mus musculus with 4 samples.

Results

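The 8 genes described here encode components of the renin-angiotensin system and the receptors through which mineralocorticoids and glucocorticoids act: Agt, Ace, Lnpep, Agtr1a, Agtrap, Atp6ap2, Nr3c2 and Nr3c1. They were taken by symbol from per-library tables that each list 22322 genes, and all 8 passed the low-count filter that left 12499 genes for testing. RNA was sequenced from isolated mouse cardiomyocytes of mice with transverse aortic constriction (TAC), surgery that leaves the aorta partly closed so that the left ventricle pumps against high pressure, and of sham-operated mice. There were 2 libraries per group, sham 1, sham 2, TAC 1 and TAC 2, and neither group carried a genetic modification or drug treatment named in the labels. Per the methods, male mice were operated on at 2 months of age and hearts were taken 14 weeks after the operation, although the animals are also called 14-week-old at one point, and no strain is named in the labels or methods. The cells of a heart were released by perfusion with digestive enzymes and 1 of 4 portions went to each library, so that the preparation was enriched for cardiomyocytes without a sort.

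In the renin-angiotensin system, renin cuts angiotensinogen to an inactive peptide, which angiotensin-converting enzyme trims to the active hormone angiotensin II. Angiotensin II acts mainly through the type 1 receptor to constrict vessels and to stimulate release of aldosterone, a steroid bound by the mineralocorticoid receptor. Drugs that block the converting enzyme, the type 1 receptor or the mineralocorticoid receptor are established treatments for heart failure, and the cardiomyocyte mineralocorticoid receptor can also be occupied by glucocorticoids.

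Expression of 3 of the 8 genes was lower in TAC than in sham cardiomyocytes and none was higher. The lower genes were Nr3c2, the mineralocorticoid receptor, at 0.571 of its sham level, Ace, the converting enzyme, at 0.601, and Agtr1a, the type 1 angiotensin receptor, at 0.736. Agt, Lnpep, Agtrap, Atp6ap2 and Nr3c1 did not pass the test, with log2 fold changes between -0.17 and 0.05. Calls are from edgeR's quasi-likelihood test at an adjusted p under 0.05, by which 2.43% of all genes tested were lower and 2.58% higher in TAC. DESeq2 called 0 members higher and 3 lower, where it called 4.28% of genes higher and 4.12% lower. At an unadjusted p under 0.05 edgeR gave 0 members higher and 3 lower, where 27.5% of all genes tested passed that threshold in either direction. In counts scaled to library size by the trimmed mean of M-values (TMM), given here as CPM, both TAC libraries lay under both sham libraries for 4 members, Ace, Agtr1a, Agtrap and Nr3c2, a pattern that 30.3% of all genes tested showed, and over both for 1 member, Atp6ap2, a pattern that 29.8% showed. The median log2 fold change was -0.11 over the 8 members and -0.01 over all genes tested. Each library came from the cells of 1 mouse, so that the p-values rest on 2 mice per group.

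**Figure D1:**
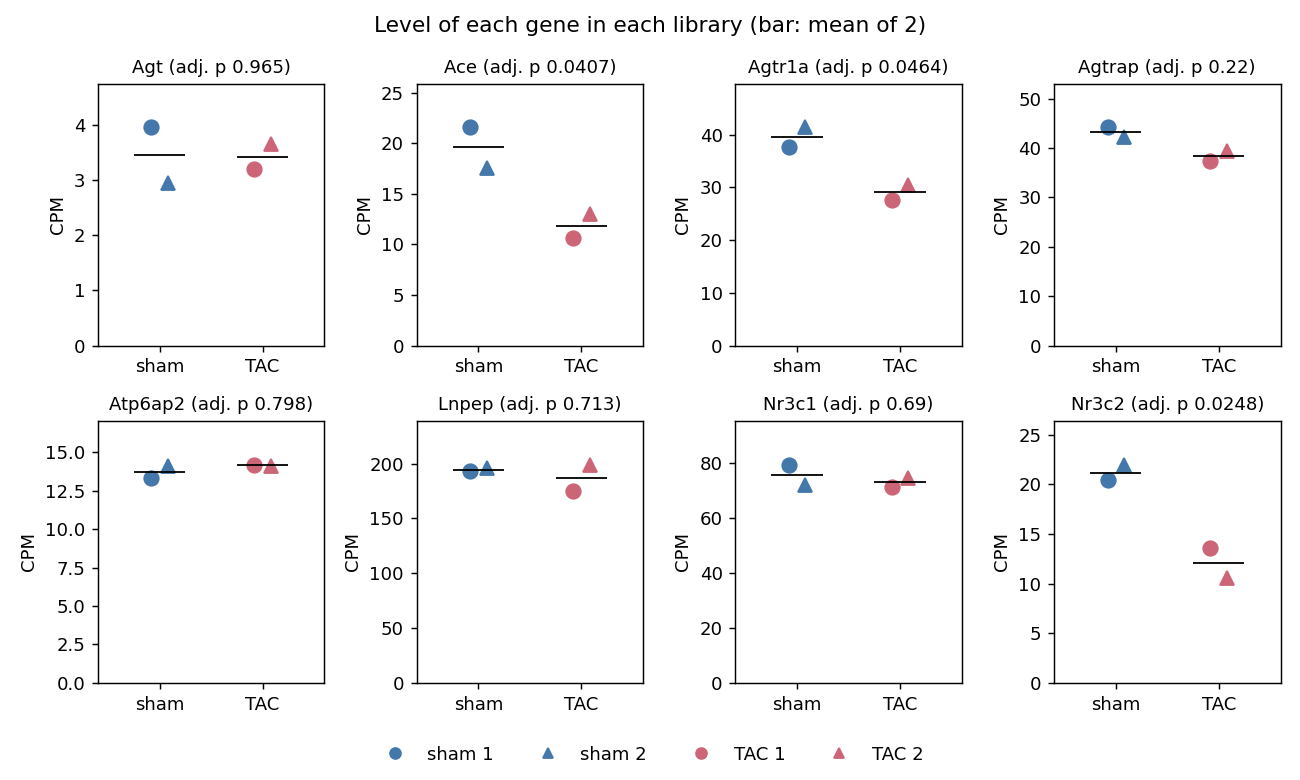
CPM, the count scaled to library size with TMM factors, of the 8 genes in each library, with 1 point per library and a bar at the mean of the 2 libraries of a group. Ace, Agtr1a and Nr3c2 show both TAC points well under both sham points, whereas Agt, Nr3c1 and Lnpep show overlapping groups.

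Libraries held between 24237777 and 32118323 expected counts. Mitochondrial transcripts, from 13 protein-coding genes, made up 47.42% of the total in TAC 1 and between 39.84% and 40.85% of it in the other 3 libraries. Summed markers of cardiomyocytes were at 83707 and 92842 CPM in sham and 91913 and 87366 CPM in TAC, with 0 of 12 genes called by edgeR (4 higher and 1 lower at an unadjusted p under 0.05) and 5 of 12 called by DESeq2. Markers of other cardiac cells were present in all 4 libraries and were lowest in TAC 1. The 12 endothelial markers summed to 669 and 527 CPM in sham and 319 and 446 CPM in TAC, with Cdh5, Egfl7 and Esam called lower. The 12 fibroblast markers summed to 526 and 364 CPM against 203 and 283 CPM, with Dcn, Lum, Dpt and Gsn called lower, and the 10 markers of pericytes and smooth muscle to 780 and 812 CPM against 452 and 594 CPM, with Pdgfrb and Abcc9 called lower, of which Abcc9, a potassium channel subunit that cardiomyocytes also express, was at 380 and 406 CPM in sham and 279 and 303 CPM in TAC. The 12 macrophage markers summed to 135 and 67.8 CPM in sham and 38.0 and 69.2 CPM in TAC, with 0 called by edgeR or DESeq2 and 5 lower at an unadjusted p under 0.05. At an unadjusted p under 0.05 edgeR gave 10 endothelial, 9 fibroblast and 9 mural markers lower, and DESeq2 called 7, 5 and 3, where 27.5% of all genes passed unadjusted in either direction and DESeq2 called 4.12% lower. Single libraries moved the edgeR calls, from 1 endothelial and 0 fibroblast and mural markers without TAC 1 to 12, 8 and 9 without TAC 2, and from 0 macrophage markers to 8 without sham 2. Of 7 mast cell markers 4 were tested, which summed to between 1.79 and 4.3 CPM with 0 called, and of the others Cma1 had between 5 and 13 counts and Ms4a2 was at 0 throughout. Of 6 adipocyte markers Fabp4, which endothelial cells also express, was the one tested and was lower, while Adipoq, Plin1 and Lep were at 0 in all 4 libraries.

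The deposited FPKM values, which correct for transcript length, put the members in the middle and upper part of the expressed genes. Agtr1a had the highest mean FPKM of the 8, 17.5 over the 4 libraries, followed by Lnpep at 15.9, Nr3c1 at 12.6 and Agtrap at 10.3. Atp6ap2 followed at 6.0, then Ace at 3.72, Nr3c2 at 3.01 and Agt at 1.83. Agtr1a lay above 86.5% of the genes with an FPKM over 0, and Agt above 47.6%. Neighbours in that order overlapped across libraries, except that every Agtrap value exceeded every Atp6ap2 value and every Atp6ap2 value exceeded every Ace value. On the FPKM scale both TAC libraries lay under both sham libraries for all members but Agt, a pattern that 45.6% of all genes tested showed on this scale. Agtr1a was the highest member in both sham libraries, at 20.46 and 21.6 FPKM, whereas Lnpep was the highest in both TAC libraries, at 12.64 and 16.65 FPKM.

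**Figure D2:**
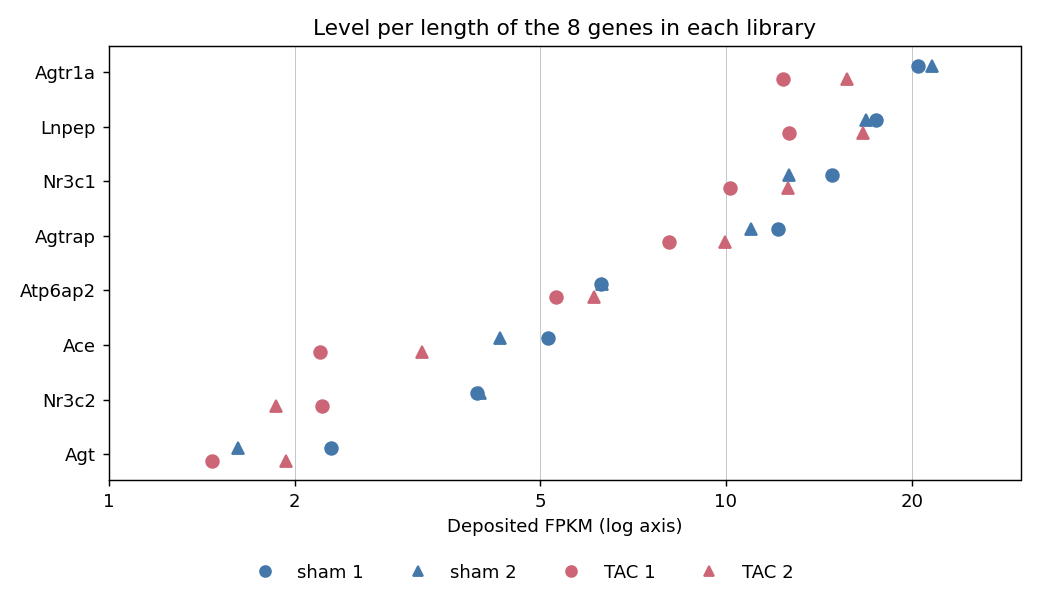
Deposited FPKM of the 8 genes on a log axis, ordered by the mean over the 4 libraries, with 1 point per library and the groups in separate colours. Means run from 17.5 for Agtr1a to 1.83 for Agt, and on this scale both TAC points sit under both sham points for every member except Agt, as they do for 45.6% of all genes tested.

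The promoters of Ace and Nr3c2, the pair of members with the largest fold changes, are printed beside that of Atp6ap2, whose level was nearly even across the 4 libraries. RefSeq promoters on build GRCm38.p6, from 250 bases before to 50 bases after each annotated start site, were found for 6 of the 8 members, in 7 entries, and none was found for Agtr1a or the glucocorticoid receptor gene. The sequences are on the plus strand, at chr11:105967698-105967997 for Ace, chr8:76902080-76902379 for Nr3c2 and chrX:12587509-12587808 for Atp6ap2, each 5′ to 3′. Capitals mark matches, on either strand, to the GC box GGGCGG, the TATA box TATAAA, the CCAAT box CCAAT and the core AGAACA of the element that mineralocorticoid and glucocorticoid receptors both bind.
Ace: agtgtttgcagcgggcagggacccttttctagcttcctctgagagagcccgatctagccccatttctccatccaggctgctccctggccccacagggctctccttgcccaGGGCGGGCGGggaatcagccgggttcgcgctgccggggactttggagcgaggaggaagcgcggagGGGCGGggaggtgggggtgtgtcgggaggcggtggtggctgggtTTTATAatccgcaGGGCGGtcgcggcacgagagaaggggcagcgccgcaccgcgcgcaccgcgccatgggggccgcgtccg
Nr3c2: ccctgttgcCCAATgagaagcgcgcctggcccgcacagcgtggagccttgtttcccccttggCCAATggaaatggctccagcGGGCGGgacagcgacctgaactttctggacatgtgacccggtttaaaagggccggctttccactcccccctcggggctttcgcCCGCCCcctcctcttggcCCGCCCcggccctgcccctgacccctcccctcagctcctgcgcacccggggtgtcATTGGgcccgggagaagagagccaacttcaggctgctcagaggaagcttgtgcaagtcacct
Atp6ap2: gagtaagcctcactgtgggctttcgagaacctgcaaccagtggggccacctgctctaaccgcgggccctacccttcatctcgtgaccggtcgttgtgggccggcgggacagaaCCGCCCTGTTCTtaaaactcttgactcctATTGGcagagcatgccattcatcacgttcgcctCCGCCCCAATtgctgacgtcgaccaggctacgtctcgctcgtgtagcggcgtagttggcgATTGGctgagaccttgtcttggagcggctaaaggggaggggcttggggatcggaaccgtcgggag
The Ace window held 4 GC boxes, of which the pair starting 140 and 136 bases upstream of the start site share letters, and a TATA box on the opposite strand 31 bases upstream. A further Ace entry has its start site 7244 bases inside the gene and shares the gene's single value in the files. The Nr3c2 window, whose start site lies 2888 bases inside the annotated gene, held 3 GC boxes and 3 CCAAT boxes and no TATA box. The Atp6ap2 window was the one member entry with the steroid receptor core, on the opposite strand 131 bases upstream and directly next to a GC box, and in it the GC box 75 bases upstream overlaps a CCAAT box. Of all 32851 promoters in the table, 35.7% held GGGCGG, 13.6% TATAAA, 37.4% CCAAT and 19.0% AGAACA. GC content was 69.7% for Ace, 65.7% for Nr3c2 and 60.3% for Atp6ap2, against a median of 52.7% over all promoters.

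Agt encodes angiotensinogen, the precursor of all angiotensin peptides, and lies at chr8:124556534-124569706 on the minus strand (ENSMUSG00000031980). It was read at 3.95 and 2.95 CPM in sham and 3.19 and 3.64 CPM in TAC. The highest and the lowest value were both in sham libraries, so the groups overlapped. The log2 fold change was -0.02 ± 0.23 (SE, n = 2 per group, edgeR adjusted p = 0.965), and between 85 and 125 counts per library stood behind it, the fewest of any member.

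Ace encodes the peptidase that makes angiotensin II from angiotensin I and degrades bradykinin, and lies at chr11:105967945-105989964 on the plus strand (ENSMUSG00000020681). It was read at 21.6 and 17.6 CPM in sham and at 10.6 and 13 CPM in TAC, from 296 to 683 counts per library. The lower sham library was above the higher TAC library, and group means were 19.6 ± 2.85 and 11.8 ± 1.66 CPM (SD, n = 2). The log2 fold change was -0.73 ± 0.15 (SE, edgeR adjusted p = 0.0407), 1.66-fold lower in TAC. The call was lost without sham 1 (log2 -0.58, edgeR adjusted p = 0.0681), without TAC 1 (log2 -0.59, edgeR adjusted p = 0.117) and with limma on the log2 of the deposited FPKM (log2 -0.63 and -0.80, adjusted p = 0.104 and 0.109 with pseudocounts of 1 and 0.1).

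Endothelial cells are known to express Ace, and their markers were set beside it. Per 100 CPM of summed endothelial markers, Ace was at 3.23 and 3.33 CPM in sham and at 3.33 and 2.91 CPM in TAC, so that on this scale the groups overlapped. They also overlapped per 100 CPM of fibroblast markers, at 4.1 and 4.82 CPM in sham and 5.24 and 4.59 CPM in TAC, and per 100 CPM of mural markers, at 2.77 and 2.16 CPM in sham and 2.35 and 2.18 CPM in TAC. Relative to the sham mean, endothelial markers were at 0.53 in TAC 1 and 0.75 in TAC 2, and Ace at 0.54 and 0.66. The part of any of these cells in the difference was not tested. In bulk RNA, fewer cells of a type and less RNA per cell cannot be told apart.

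Lnpep encodes insulin-regulated aminopeptidase, a membrane enzyme that travels with the GLUT4 glucose transporter and binds angiotensin IV. It lies at chr17:17521410-17625050 on the minus strand (ENSMUSG00000023845), and its 4865 to 6093 counts per library made it the most deeply read member. Lnpep was at 193 and 196 CPM in sham and 175 and 199 CPM in TAC. TAC 1 was the lowest and TAC 2 the highest library, and the log2 fold change was -0.05 ± 0.08 (SE, n = 2 per group, edgeR adjusted p = 0.713).

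Agtr1a encodes the type 1a angiotensin II receptor, a Gq-coupled receptor and the principal type 1 receptor of the rodent heart, and lies at chr13:30336441-30382867 on the plus strand (ENSMUSG00000049115). It was read at 37.7 and 41.4 CPM in sham and 27.6 and 30.5 CPM in TAC, from 747 to 1192 counts per library. The groups did not overlap, with means of 39.5 ± 2.61 and 29.1 ± 2.07 CPM (SD, n = 2). The log2 fold change was -0.44 ± 0.10 (SE, edgeR adjusted p = 0.0464). The call was lost without sham 2 (log2 -0.37, edgeR adjusted p = 0.13), without TAC 1 (log2 -0.37, edgeR adjusted p = 0.139) and with limma on FPKM (log2 -0.56 and -0.59, adjusted p = 0.0824 and 0.0869).

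Fibroblasts, pericytes and smooth muscle cells are known to express the type 1 receptor. Per 100 CPM of summed mural markers Agtr1a was at 4.83 and 5.09 CPM in sham and at 6.11 and 5.14 CPM in TAC, and per 100 CPM of fibroblast markers at 7.16 and 11.4 CPM in sham and 13.6 and 10.8 CPM in TAC. With Abcc9 left out of the mural markers, a choice made after seeing the data, Agtr1a was at 9.42 and 10.2 CPM in sham and 16.0 and 10.5 CPM in TAC. On both mural scales both TAC libraries were above both sham libraries, TAC 2 by little, and on the fibroblast scale the groups overlapped. Relative to its sham mean Agtr1a was at 0.7 in TAC 1 and 0.77 in TAC 2, where mural markers were at 0.57 and 0.75 and fibroblast markers at 0.46 and 0.63. These mural values include Abcc9. Without it the mural markers summed to 400 and 406 CPM in sham and 173 and 291 CPM in TAC. Whether these cells carried the difference was not tested.

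Agtrap encodes a membrane protein that binds the type 1 receptor and promotes its internalisation, and lies at chr4:148077061-148088031 on the minus strand (ENSMUSG00000029007). It was at 44.2 and 42.2 CPM in sham and 37.3 and 39.4 CPM in TAC. The groups did not overlap, but the log2 fold change of -0.17 ± 0.08 (SE, n = 2 per group) did not pass the test (edgeR adjusted p = 0.22). In counts, the ratio of Agtrap to Agtr1a was 1.17 and 1.02 in sham and 1.35 and 1.29 in TAC, higher in both TAC libraries, where the smallest p that an exact two-sided permutation test of 2 against 2 libraries allows is 0.333.

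Atp6ap2 encodes the prorenin receptor, which is also an accessory subunit of the vacuolar proton pump, and lies at chrX:12587801-12617049 on the plus strand (ENSMUSG00000031007). It was at 13.3 and 14.1 CPM in sham and 14.2 and 14.1 CPM in TAC, a log2 fold change of 0.05 ± 0.11 (SE, n = 2 per group, edgeR adjusted p = 0.798). Before rounding both TAC values were above both sham values, by less than the distance between the sham libraries. The sign was negative with libraries scaled by total counts (log2 -0.14), without mitochondrial genes in the totals (log2 -0.05) and with FPKM (log2 -0.12 and -0.14).

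Nr3c2 encodes the mineralocorticoid receptor, a ligand-activated transcription factor, and lies at chr8:76899442-77245012 on the plus strand (ENSMUSG00000031618). It was read at 20.5 and 22.0 CPM in sham and 13.6 and 10.6 CPM in TAC, from 260 to 648 counts per library. The groups were well apart, with means of 21.2 ± 1.07 and 12.1 ± 2.07 CPM (SD, n = 2). The log2 fold change was -0.81 ± 0.14 (SE, edgeR adjusted p = 0.0248), 1.75-fold lower in TAC and the largest difference among the 8 members. Ace had the larger difference without sham 2 (log2 -0.87, Nr3c2 -0.75) and without TAC 2 (log2 -0.88, Nr3c2 -0.64). The call held in every count-based alternative and was lost with limma on FPKM (log2 -0.71 and -0.93, adjusted p = 0.0525 and 0.0553).

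Nr3c2 and the summed markers of other cell types were lowest in different TAC libraries, an order of single libraries that carries no test. TAC 2 had the lowest Nr3c2, at 0.5 of the sham mean against 0.64 in TAC 1, whereas endothelial, fibroblast, mural and macrophage markers were all lowest in TAC 1. Per 100 CPM of endothelial markers Nr3c2 was at 3.06 and 4.17 CPM in sham and 4.25 and 2.38 CPM in TAC, and per 100 CPM of mural markers at 2.63 and 2.71 CPM in sham and 3.0 and 1.79 CPM in TAC. Without Abcc9 the latter values were 5.12 and 5.42 CPM in sham and 7.83 and 3.65 CPM in TAC. The groups overlapped on all 3 scales, and the part of these cells in the difference was not tested.

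**Figure D3:**
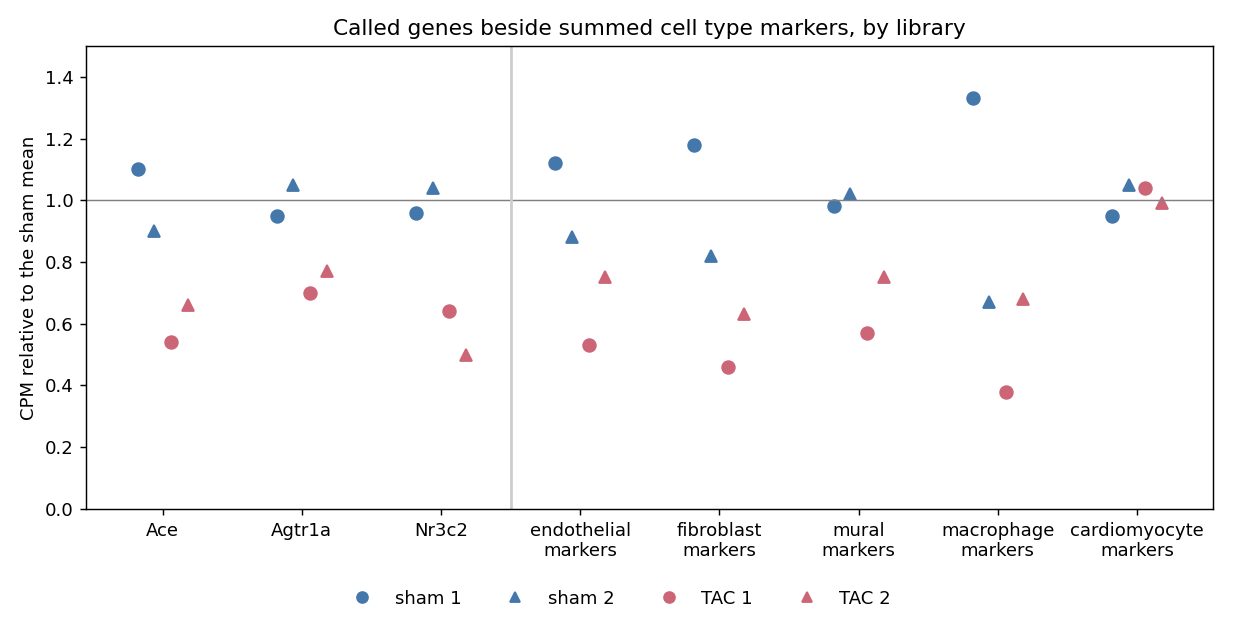
Levels in each library relative to the mean of the 2 sham libraries, for summed markers of 5 cell types and for Ace, Agtr1a and Nr3c2, with 1 point per library. Cardiomyocyte markers stay between 0.95 and 1.05, markers of the other cells are lowest in TAC 1, and Nr3c2 is lowest in TAC 2.

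Nr3c1 encodes the glucocorticoid receptor, the close relative of Nr3c2 that binds the same DNA element (ENSMUSG00000024431). It was at 79.5 and 72.2 CPM in sham and 71.2 and 74.8 CPM in TAC, from 1830 to 2516 counts per library. The groups overlapped, and the log2 fold change was -0.06 ± 0.08 (SE, n = 2 per group, edgeR adjusted p = 0.69). On the deposited FPKM scale Nr3c1 exceeded Nr3c2 in every library, by 3.75 and 3.16 times in sham and by 4.57 and 6.75 times in TAC. The ratio of the pair of receptors was therefore higher in both TAC libraries than in both sham libraries, and the exact permutation test of 2 against 2 libraries cannot give a two-sided p below 0.333.

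The other enzymes that make or break down angiotensin peptides did not pass the test. Of 18 genes listed, 14 were tested, and 0 were called by edgeR or by DESeq2, with 2 higher and 2 lower at an unadjusted p under 0.05 in edgeR, where 27.5% of all genes tested passed in either direction, and a median log2 fold change of -0.01. The highest in CPM were Ctsd, the lysosomal aspartic protease cathepsin D, at 1291 and 1276 CPM in sham and 1441 and 1538 CPM in TAC (log2 0.22 ± 0.08, edgeR adjusted p = 0.148), and Ctsa, cathepsin A, at 116 and 114 CPM in sham and 119 and 121 CPM in TAC. Renin itself, Ren1, had 0 counts in all 4 libraries, as did the mast cell protease Ctsg, and Ren2 has no row in the files. With 3 counts as the floor, a level under 0.095 to 0.12 CPM per library could not be seen.

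Among 17 genes for other angiotensin receptors and the proteins that couple them, 14 were tested and 0 were called by edgeR or DESeq2, with 0 higher and 3 lower at an unadjusted p under 0.05 in edgeR, where 27.5% of all genes tested passed in either direction, and a median log2 fold change of -0.14. Gna12, a G protein subunit, was at 130 and 128 CPM in sham and 134 and 129 CPM in TAC, and Gabarap, which binds the type 1 receptor and helps carry it to the membrane, at 94.2 and 88.7 CPM in sham and 99.6 and 101 CPM in TAC. Agtr1b and Agtr2, the type 1b and type 2 receptors, and Mrgprd had 0 counts in every library. Mas1, the receptor for angiotensin 1-7, had between 6 and 12 counts. How reads shared by the closely related Agtr1a and Agtr1b were assigned is not stated.

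Enzymes that supply steroid ligand were sparsely read. Of 8 genes, 3 were tested and 0 were called by edgeR or DESeq2, with 1 lower at an unadjusted p under 0.05 in edgeR, where 27.5% of all genes passed in either direction. Hsd11b1, which regenerates active glucocorticoid, was at 4.8 and 4.03 CPM in sham and 2.91 and 2.82 CPM in TAC (log2 -0.63 ± 0.21, edgeR adjusted p = 0.108), and H6pd, which supplies its cofactor, at 36.0 and 32.7 CPM in sham and 27.1 and 31.9 CPM in TAC. The enzyme that protects the mineralocorticoid receptor from glucocorticoids in kidney, Hsd11b2, had 0 and 1 counts in sham and 1 and 2 counts in TAC. The aldosterone and corticosterone synthases Cyp11b2 and Cyp11b1 and the 21-hydroxylase Cyp21a1 had 0 counts throughout.

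Genes that chaperone steroid receptors were partly higher in TAC. Of 14 chaperones and coregulators 3 were higher and 0 lower by edgeR, where 2.58% and 2.43% of all genes tested were. DESeq2 called 3 higher and 1 lower, where it called 4.28% of genes higher and 4.12% lower. At an unadjusted p under 0.05 edgeR gave 5 higher and 1 lower, where 27.5% of all genes tested passed in either direction. The median log2 fold change was -0.03. Hspa8, a constitutive heat shock protein 70, was at 983 and 916 CPM in sham and 1456 and 1337 CPM in TAC (log2 0.56 ± 0.09, edgeR adjusted p = 0.0202). Hsp90aa1, a heat shock protein 90, was at 156 and 145 CPM in sham and 201 and 213 CPM in TAC (log2 0.46 ± 0.08, edgeR adjusted p = 0.0243). Ptges3, the cochaperone p23, was at 38.4 and 39.5 CPM in sham and 52.7 and 51.0 CPM in TAC (log2 0.41 ± 0.08, edgeR adjusted p = 0.0313). How reads shared with pseudogenes of these heat shock genes were assigned is not stated. None of the 3 calls held with libraries scaled by total counts or with FPKM. That of Ptges3 was lost in 8 of 12 alternatives, also without sham 1, sham 2 or TAC 1, with the replicate block (edgeR adjusted p = 0.0531) and with totals that leave out mitochondrial genes, which also ended that of Hsp90aa1.

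Genes known to respond to corticosteroids differed in both directions. Of 21 genes edgeR called 2 higher and 2 lower in TAC, DESeq2 called 3 higher and 6 lower, and at an unadjusted p under 0.05 edgeR gave 4 higher and 9 lower. The shares of all genes were 2.58% and 2.43% for edgeR calls, 4.28% and 4.12% for DESeq2 calls and 27.5% in either direction at the unadjusted threshold, and the median log2 fold change was -0.28 against -0.01 over all genes tested. Dusp1, a phosphatase that restrains MAP kinases, was lower, at 103 and 67.0 CPM in sham and 31.8 and 41.3 CPM in TAC (log2 -1.22 ± 0.2, edgeR adjusted p = 0.0242). Nedd4l, a ubiquitin ligase that limits sodium channels, was lower, at 26.9 and 27.5 CPM in sham and 20.0 and 19.5 CPM in TAC (log2 -0.46 ± 0.09, edgeR adjusted p = 0.0385). Ddit4, an inhibitor of mTOR signalling, was higher, at 6.86 and 5.53 CPM in sham and 17.0 and 11.7 CPM in TAC (log2 1.21 ± 0.21, edgeR adjusted p = 0.026), as was Cdkn1a, the cell cycle inhibitor p21, at 15.5 and 10.9 CPM in sham and 27.3 and 21.3 CPM in TAC (log2 0.88 ± 0.19, edgeR adjusted p = 0.0443). These 4 genes also respond to stress or cell damage signals. The calls of Dusp1 and Ddit4 held in every alternative tried, whereas Nedd4l lost its call in 4 of 12, with the replicate block (edgeR adjusted p = 0.0629) and without sham 1, sham 2 or TAC 1. Cdkn1a lost its call in 5, without TAC 1, with total counts, with totals that leave out mitochondrial genes and with both FPKM fits. The list varied within the sham group, with a median size of the log2 difference between sham 1 and sham 2 of 0.62, against 0.14 over all genes tested. The steroid receptor core was found in 4 of the 26 promoter entries of list genes, from 2 of 16 genes, where 19.0% of all promoters held it.

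Atp6ap2 was also read against the proton pump it assembles with. All 15 other subunits of the vacuolar ATPase had a fitted log2 fold change above 0, as did 6140 of the 12499 genes tested, with a median of 0.21. Of the 15, edgeR called 1 higher, DESeq2 called 3, and 8 were higher at an unadjusted p under 0.05, where 2.58% and 4.28% of all genes were called higher and 27.5% passed unadjusted in either direction. Atp6v1b2, a catalytic-sector subunit, was at 67.7 and 68.1 CPM in sham and 89.8 and 82.7 CPM in TAC (log2 0.34 ± 0.08, edgeR adjusted p = 0.0487), a call lost in 8 of 12 alternatives, among them the replicate block (edgeR adjusted p = 0.0803) and without sham 1, sham 2 or TAC 1. Atp6v0c, the proton-carrying ring subunit, was at 132 and 126 CPM in sham and 156 and 179 CPM in TAC (log2 0.37 ± 0.09, edgeR adjusted p = 0.0545), and Atp6ap1, the other accessory subunit, at 125 and 118 CPM in sham and 147 and 155 CPM in TAC (log2 0.31 ± 0.07, edgeR adjusted p = 0.0551). With libraries scaled by total counts, 9 of the 15 subunits had a log2 fold change above 0, with a median of 0.02 where that of all genes was -0.20, and none was called.

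Of 10 genes for GLUT4 vesicles, the compartment that carries the Lnpep protein, edgeR called 1 higher and 1 lower. The edgeR shares of all genes tested were 2.58% higher and 2.43% lower. DESeq2 called 1 higher and 3 lower, where it called 4.28% of genes higher and 4.12% lower. At an unadjusted p under 0.05 edgeR gave 1 higher and 3 lower, where 27.5% of all genes passed in either direction. The median log2 fold change was 0.03. Tnks2, a tankyrase that binds the Lnpep protein, was at 87.9 and 92.7 CPM in sham and 117 and 116 CPM in TAC (log2 0.37 ± 0.07, edgeR adjusted p = 0.0348). Tbc1d4, a brake on GLUT4 vesicle release, was lower, at 100 and 111 CPM in sham and 81.6 and 76.9 CPM in TAC (log2 -0.41 ± 0.08, edgeR adjusted p = 0.0372). The call of Tnks2 was lost in 7 of 12 alternatives, among them the replicate block (edgeR adjusted p = 0.059), total counts (log2 0.18) and FPKM (log2 0.05), and without sham 1 or TAC 1. That of Tbc1d4 was lost in 6, namely the replicate block (edgeR adjusted p = 0.051), both FPKM fits and without sham 2, TAC 1 or TAC 2. GLUT4 itself, Slc2a4, did not pass the test either (edgeR adjusted p = 0.885), at 434 and 456 CPM in sham and 450 and 453 CPM in TAC. Over the 7 lists, 90 of 102 genes were tested, of which edgeR called 7 higher and 3 lower. Of all genes tested it called 2.58% higher and 2.43% lower. The median log2 fold change was 0.03 over the list genes and -0.01 over all genes tested.

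**Figure D4:**
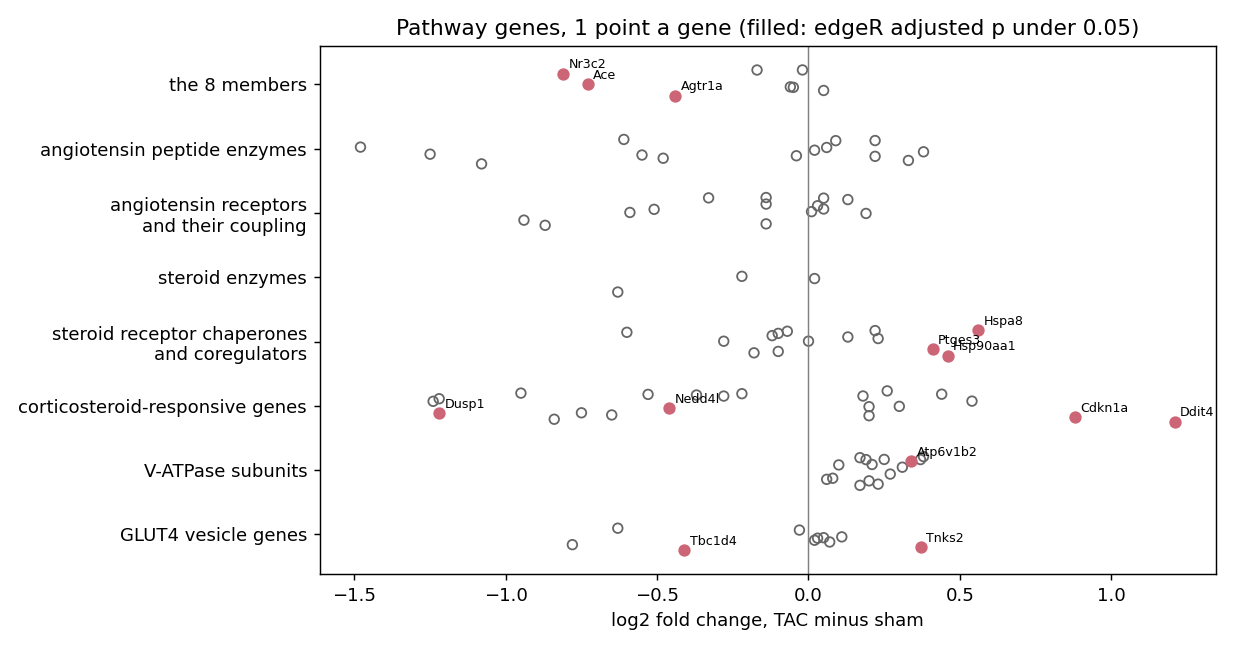
Log2 fold change of TAC over sham from edgeR for every tested gene of the 8 members and the 7 pathway lists, with 1 point per gene, filled and named where the adjusted p was under 0.05. List medians run from -0.28 for corticosteroid-responsive genes to 0.21 for subunits of the vacuolar ATPase, and the member median is -0.11.

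The size of the differences varied with the settings for the 3 members called, but their sign did not. Over 12 alternatives the log2 fold change of Nr3c2 ranged from -1.01 to -0.64, that of Ace from -0.92 to -0.58 and that of Agtr1a from -0.62 to -0.37. Scaling by total counts moved the median of all genes tested to -0.20, and the lowest values of the 3 ranges include such shifts. Agt, Agtrap, Nr3c1, Lnpep and Atp6ap2 were called in none of the alternatives.

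**Figure D5:**
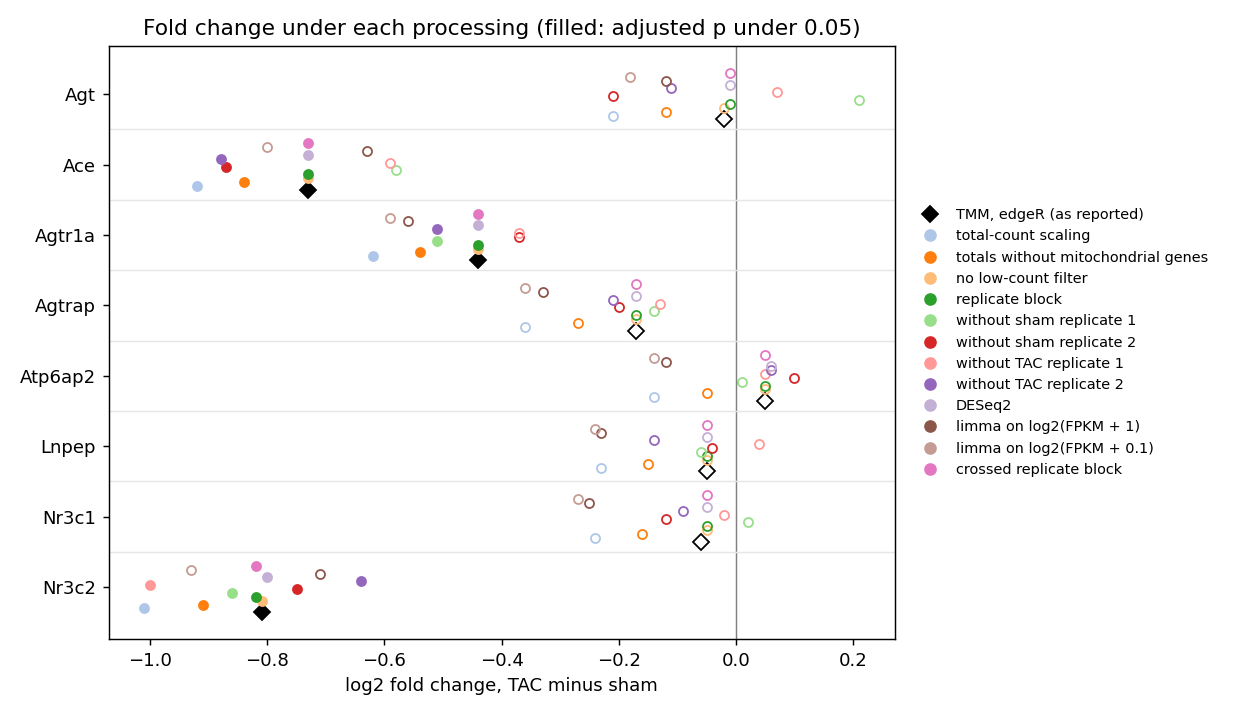
Log2 fold change of TAC over sham of the 8 genes under each setting, with 1 point per setting, filled where the adjusted p was under 0.05, and the reported value as a black diamond. Nr3c2 stays between -1.01 and -0.64, Ace between -0.92 and -0.58 and Agtr1a between -0.62 and -0.37, while the points of Agt, Atp6ap2, Nr3c1 and Lnpep fall on both sides of 0.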

How the data were processed

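RNA was extracted with TRIzol and libraries were built by Illumina protocols, and the counting program and strand setting are not stated. The deposited per-library tables hold expected counts, of which between 1432 and 1519 genes per library were not whole, and FPKM, both made by the authors. The submitters' processing notes name Bowtie2 2.2.8, StringTie 1.3.1 and mm10.

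The 8 members and all gene lists were chosen with earlier results of these data known. Expected counts were rounded, filtered with filterByExpr and scaled by TMM (edgeR 4.0.16 in R 4.3.3), and TAC was tested against sham by quasi-likelihood with Benjamini-Hochberg adjustment over 12499 genes. The script was tested on simulated counts. Alternatives were DESeq2 1.42.0, limma 3.58.1 on log2(FPKM + 1) and log2(FPKM + 0.1), total-count scaling with and without mitochondrial genes, no filter, each library left out, and a replicate block. A crossed replicate block, added after seeing the data, is counted among the 12 alternatives. Total counts ranged from 24237777 to 32118323 per library, the biological coefficient of variation was 10.5%, and floors of 3 counts cover counting error only. FPKM values imply transcript lengths for Ace that differ by 13.4% between libraries. Genes named are all members, every called list gene and, in lists with fewer than 2 calls, the 2 genes highest in CPM. Renin, receptors and steroid enzymes near 0 and Slc2a4 were added after their values were seen. One listed gene is not reported here. Gene positions are from GENCODE vM21 on GRCm38. Exons of Ace and Nr3c2 overlap genes of the other strand by 295 and 247 bases. With the strand setting not stated, whether reads of either strand were told apart there is not known.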

Additional observations from a re-analysis of the deposited data

How the results depend on the processing

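Across 12 alternatives the members gave 78 comparisons with the same sign and the same side of the threshold, 10 in which a call was lost and 8 in which the sign of an uncalled gene changed, and no member was called higher. The number of members called lower was 3, fell to 0 with limma at both FPKM pseudocounts, and ranged from 1 (without TAC 1, with Nr3c2 left) to 3 with 1 library left out. Atp6ap2 changed sign with total counts (-0.14), without mitochondrial genes (-0.05) and with FPKM (-0.12 and -0.14). With 1 library left out, Agt ranged from -0.21 to 0.21, Nr3c1 from -0.12 to 0.02 and Lnpep from -0.14 to 0.04. Genes of the pathway lists called lower, 3 as reported, became 6 with total counts, 15 without the filter, 10 with DESeq2, 5 with the replicate block and 1 (without TAC 1) to 10 (without TAC 2) with 1 library left out. Those called higher, 7 as reported, became 1 with total counts, 2 without mitochondrial genes, 11 without the filter, 1 at both FPKM pseudocounts and 4 (without sham 1) to 8 with 1 library left out. Over all genes tested, 322 higher and 304 lower calls became 105 and 423 with total counts, 183 and 118 without TAC 1 and 560 and 776 without TAC 2. The causes were not tested.

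With the replicate number as a block, 3 members were again called lower. Over genes, deviations from the group mean in same-numbered libraries had a correlation of -0.242. With 2 libraries per group this value cannot decide whether the numbers mark pairs, since any difference shared by many genes sets its sign. The methods speak of pairs of sham and TAC mice but do not say which libraries were paired. A crossed block, chosen after seeing the data, also called 3 members lower, with 13 list genes higher and 14 lower. With 2 libraries per group, 1 library decides several calls, and Agt, with 85 to 125 counts, is the least precise member.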

Other observations

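The 21 corticosteroid-responsive genes differed more between the 2 sham libraries than the members did. The median size of the log2 difference between sham 1 and sham 2 was 0.62 over these genes, against 0.14 over all genes tested and 0.12 over the 8 members. Between TAC 1 and TAC 2 it was 0.25, 0.16 and 0.16. In sham 2 the level of Zbtb16, a zinc finger factor strongly induced by glucocorticoids, was 3.57 times that in sham 1, and Per1, a clock gene, was at 2.07 times, Mt2, a metallothionein, at 1.7 times and Fkbp5, a cochaperone of both steroid receptors, at 1.69 times. Cebpd was at 0.459 times and Errfi1 at 0.515 times in the same comparison. Summed markers of other cells also differed between these libraries, those of macrophages from 135 CPM in sham 1 to 67.8 CPM in sham 2 and those of fibroblasts from 526 to 364 CPM, and their part in these differences was not tested. The members Nr3c1 and Nr3c2 were at 0.908 and 1.07 times in sham 2 relative to sham 1. These genes were named after their values were seen, and with 1 library on each side the differences carry no test.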
